A study of Mus musculus with 78 samples.

Results

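Egr2, Egr3, Nr4a1, Nr4a2, Nr4a3 and Ier2 are rapidly induced transcription factor genes of activated T cells, described here in mouse CD8+ T cells after 3 h of nutrient withdrawal or drug treatment. They were chosen by symbol from the EGR and NR4A families, with Ier2 added as another immediate early gene. The 6 genes are among 14695 in the deposited count table, and 1 of the 7 genes that the rule names was not analysed here. Their identifiers are ENSMUSG00000037868.16 (Egr2), ENSMUSG00000033730.5 (Egr3), ENSMUSG00000023034.8 (Nr4a1), ENSMUSG00000026826.14 (Nr4a2), ENSMUSG00000028341.10 (Nr4a3) and ENSMUSG00000053560.6 (Ier2). All 6 passed the filter on low counts in every fit.

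The cells, CD8+ T cells isolated from spleens and lymph nodes of C57BL/6J animals, were on day 3 of activation, so every group, controls included, had already been stimulated. One experiment withdrew nutrients for 3 h: cells were kept in complete medium (Control) or in medium lacking arginine (NoArginine), the branched-chain amino acids leucine, isoleucine and valine (NoBCAA), glucose (NoGlucose), glutamine (NoGlutamine) or methionine (NoMethionine). The other added drugs for 3 h: halofuginone, which inhibits prolyl-tRNA synthetase, Torin1, which inhibits the mTOR kinase, or 4EGI-1, which keeps eIF4E from binding eIF4G, with DMSO as the control. The labels give no doses. Cells of all groups met cycloheximide, which holds ribosomes on mRNA, at washing and lysis. Each lysate gave total RNA and polysome RNA, the latter pooled from gradient fractions 9 to 13, with 3 libraries in each of 12 nutrient and 8 drug groups. The labels do not say whether replicates were separate cultures or animals, so p-values then cover only how much these libraries differ, which may be technical. They call the nutrient libraries total RNA and the drug libraries polyA RNA, and these nutrient and drug experiments were fitted apart.

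EGR proteins are zinc finger factors that bind a GC-rich site. They are switched on within minutes of antigen receptor signalling through the ERK cascade and serum response factor, and Egr2 and Egr3 are known in T cells for restraining later responses. NR4A proteins are orphan nuclear receptors that bind DNA without a known ligand in the cell, so their activity depends largely on their amount. They are driven by calcium signalling through NFAT and MEF2 and by cyclic AMP through CREB. In CD8+ T cells they are known for their part in limiting effector function and in exhaustion. Ier2 is a short nuclear protein whose gene responds to serum, stress and receptor signals. In bulk RNA, fewer cells expressing a gene and less of its RNA per cell cannot be told apart.

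Promoters of 4 of the 7 genes were found in the RefSeq table of the mouse build GRCm38.p6. Their 250 bases before the transcription start are shown so that sites for some of the regulators known to drive these genes can be set beside their values. Each is printed 5′ to 3′ on the gene's own strand with matched motifs in capitals: Egr2 at chr10:67537619-67537868 (plus strand), Nr4a1 at chr15:101266596-101266845 (plus strand), Nr4a2 at chr2:57124004-57124253 (minus strand) and Nr4a3 at chr4:48045055-48045304 (plus strand). Egr2 has 5 starts in the table, and 3 of their windows, which overlap, tie for the most matches with the same CArG box and cores. The first of these by position is shown, and the CArG box lies at -72, -73 or -133 by the start taken. The window at chr10:67537316-67537565 held only another CArG box, CCTTTTTTGG at -72, and that at chr10:67535249-67535498 held no match. The Egr2 window was thus picked for its matches, unlike the promoters behind the shares given below.
Egr2: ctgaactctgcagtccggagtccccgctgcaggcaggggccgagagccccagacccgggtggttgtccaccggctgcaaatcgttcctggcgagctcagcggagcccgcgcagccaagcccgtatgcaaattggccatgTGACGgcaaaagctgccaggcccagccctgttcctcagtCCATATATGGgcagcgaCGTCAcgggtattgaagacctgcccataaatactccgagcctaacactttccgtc
Nr4a1: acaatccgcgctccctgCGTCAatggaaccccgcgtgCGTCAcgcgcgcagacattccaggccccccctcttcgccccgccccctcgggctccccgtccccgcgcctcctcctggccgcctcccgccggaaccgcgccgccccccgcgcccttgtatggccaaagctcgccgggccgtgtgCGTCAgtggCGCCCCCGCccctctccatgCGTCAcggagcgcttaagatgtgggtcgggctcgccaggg
Nr4a2: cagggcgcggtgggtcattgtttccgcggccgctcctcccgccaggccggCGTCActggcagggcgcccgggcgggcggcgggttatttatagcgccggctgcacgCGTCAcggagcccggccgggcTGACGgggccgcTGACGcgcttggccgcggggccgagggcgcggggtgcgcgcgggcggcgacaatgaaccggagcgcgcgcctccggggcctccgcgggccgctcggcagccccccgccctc
Nr4a3: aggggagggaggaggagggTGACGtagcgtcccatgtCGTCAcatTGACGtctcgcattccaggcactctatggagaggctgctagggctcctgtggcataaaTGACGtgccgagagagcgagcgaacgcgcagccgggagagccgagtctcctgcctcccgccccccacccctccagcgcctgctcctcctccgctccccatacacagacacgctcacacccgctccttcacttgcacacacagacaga
The motifs searched, on both strands, were the CArG box bound by serum response factor, the cyclic AMP response element TGACGTCA and its core TGACG, the EGR sites GCGTGGGCG and GCGGGGGCG, the NR4A site AAAGGTCA, the AP-1 site TGANTCA and the ETS site CCGGAAGT. Sites for NFAT and MEF2 were not searched, so unmarked letters do not show that such sites are absent. The core lies inside the full element, and no full element was found in these 4 windows. Positions count back from the start, and name the leftmost base of a match. The Egr2 window held a CArG box at -72, and 2 cores, at -111 and, on the opposite strand, at -55. The Nr4a1 window held 4 cores, all on the opposite strand, at -233, -213, -69 and -40, with an EGR site of the form GCGGGGGCG at -60. Nr4a2 had 4 cores at -200, -144, -123 and -111, and Nr4a3 had 4 at -231, -213, -205 and -147. Among all 32851 promoters of this length, 1.47% held a CArG box, 17.8% at least 1 TGACG, 1.55% TGACGTCA, 0.536% GCGTGGGCG, 2.57% GCGGGGGCG, 1.34% AAAGGTCA, 6.75% TGANTCA and 2.88% CCGGAAGT. Windows with 4 or more cores numbered 45 of 32851 (0.137%), a number of sites chosen after the counts were seen. A match is a description of letters and not a measured binding site.

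Libraries of the nutrient experiment held 15144663 to 30637485 counts (total RNA) and 29917770 to 54272886 (polysome). Those of the drug experiment held 17506526 to 23099949 and 17846266 to 24929556. The 6 markers listed for CD8 T cells (Cd3d, Cd3e, Cd3g, Cd2, Cd8a and Cd8b1) were present in all libraries, at a summed 1023 to 3858 CPM (counts scaled to library size). The CD3 genes and Cd2 are shared by T cells, so this sum does not tell CD8 from CD4 T cells. Of the markers of other cells that could be checked, Foxp3 reached at most 2.76, Cd79b 18.8, Cd68 15.9, Zbtb46 3.00, Pf4 1.49 and Cd79a 0.599 CPM in any library; the other markers of those lists were not analysed here. Replicate 2 without arginine had the fewest counts of all total RNA libraries, 15144663, and the largest share of ribosomal RNA entries among the nutrient libraries, 5.11%. As a check of the treatments, of 7 tested targets of the integrated stress response, 5 rose without arginine, all 7 in each of the other deprivations and 4 with halofuginone.

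In total RNA, the first question was how each withdrawal moved the 6 genes against complete medium. Methionine withdrawal raised all 6, and arginine withdrawal also raised all 6, by less. Without arginine, 4 of 6 were called on leaving out Control replicate 1, NoArginine replicate 1 or NoArginine replicate 2, and 5 on leaving out any of the other 3 libraries. Without BCAA and without glutamine 5 of 6 rose, every one but Nr4a2. Without glucose 5 rose and Nr4a2 fell. Levels below are CPM with TMM-scaled library sizes, which can be compared between libraries for 1 gene but not between genes, and changes are log2 fold changes ± standard error from edgeR's quasi-likelihood test, with p-values adjusted over all genes by the Benjamini-Hochberg method and called at 0.05.

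Of all genes tested, 5.1% rose without arginine, 16.4% without BCAA, 21.8% without glucose, 20.4% without glutamine and 19.5% without methionine. The shares that fell were, in the same order, 4.14, 13.6, 19, 18.6 and 15.7%. The median change of the 6 genes was 0.76 without arginine, 1.24 without BCAA, 0.80 without glucose, 1.52 without glutamine and 1.98 without methionine. Over all genes tested the medians lay between -0.01 and 0.02. The 5 comparisons share the same Control libraries, so their values are given side by side and no agreement between them is counted as a result.

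Egr2 showed the widest range. Its level was 14.6, 13.1 and 13.1 CPM in the 3 Control libraries, and 103, 91.8 and 104 CPM without methionine. Without glutamine it stood at 60.7, 56.6 and 64.3 CPM, and without BCAA at 60.9, 62.6 and 58.7 CPM. Both of these groups lay above every Control library and below every library without methionine. The smaller responses were 32.8, 33.3 and 32.2 CPM without glucose and 28.1, 31.3 and 25.4 CPM without arginine, again with no overlap with Control. Against Control, Egr2 rose by 2.87 ± 0.08 without methionine, 7.33-fold (adjusted p = 5.1e-16), by 2.16 ± 0.08 without glutamine (adjusted p = 2.2e-14) and by 2.16 ± 0.08 without BCAA (adjusted p = 4.6e-14). It rose by 1.27 ± 0.08 without glucose (adjusted p = 2.5e-10) and by 1.05 ± 0.08 without arginine (adjusted p = 8.9e-08).

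Egr3, the paralogue that often acts alongside Egr2, had few reads in the nutrient experiment. Control libraries held 2.02, 2.08 and 2.20 CPM, and those without methionine 12.1, 7.13 and 8.46 CPM. Without glutamine Egr3 was at 6.10, 5.73 and 5.47 CPM. The other 3 withdrawals gave similar, scattered values, 4.82, 4.56 and 2.66 CPM without arginine, 3.03, 4.42 and 4.30 CPM without BCAA and 4.60, 4.55 and 3.20 CPM without glucose. All 15 deprived libraries lay above all Control libraries. Egr3 rose by 2.12 ± 0.22 without methionine (adjusted p = 1.4e-07) and by 1.45 ± 0.23 without glutamine (adjusted p = 2.4e-05). The rise without arginine, 0.93 ± 0.24 (adjusted p = 0.017), was no longer called without Control replicate 1, NoArginine replicate 1 or NoArginine replicate 2 (adjusted p = 0.06, 0.13 and 0.074). The rises without BCAA and without glucose were 0.90 ± 0.23 and 0.95 ± 0.23 (adjusted p = 0.0056 and 0.0028).

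Nr4a1, also called Nur77 and widely used as a reporter of antigen receptor signalling, stood at 62.7, 70.4 and 61.6 CPM in Control and 286, 276 and 309 CPM without methionine. Glutamine withdrawal gave 205, 196 and 185 CPM. The 3 libraries without BCAA, at 165, 176 and 154 CPM, and the 3 without glucose, at 165, 163 and 169 CPM, overlapped. Arginine withdrawal gave the lowest deprived levels, 97.2, 109 and 85.8 CPM, still all above Control. The changes were 2.16 ± 0.08 without methionine (adjusted p = 4.1e-14), 1.59 ± 0.08 without glutamine (adjusted p = 3.1e-12), 1.35 ± 0.08 without BCAA (adjusted p = 6.5e-11), 1.35 ± 0.08 without glucose (adjusted p = 6.9e-11) and 0.58 ± 0.08 without arginine (adjusted p = 8.1e-05). Libraries without glucose were the most alike of the deprived groups for this gene.

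Nr4a2, also called Nurr1, was the member that moved least and the only one that fell in a deprivation. Control libraries held 55.9, 52.6 and 51.5 CPM, and those without glucose 38.5, 40.7 and 40.4 CPM, all below Control. Libraries without glutamine, at 55.4, 49.4 and 47.5 CPM, overlapped Control, and those without BCAA, at 56.3, 57.9 and 56.8 CPM, lay just above it. The fall without glucose was 0.42 ± 0.08 on the log2 scale, 1.34-fold (adjusted p = 0.00031). Levels without methionine were 81.5, 64.4 and 65.3 CPM, a rise of 0.40 ± 0.08 (adjusted p = 0.00048). Levels without arginine were 63.5, 66.2 and 61.9 CPM, a change of 0.26 ± 0.08 (adjusted p = 0.047). This call had the largest adjusted p of those in total RNA of the nutrient experiment and was lost on leaving out any of the 6 libraries, with the DESeq2 size factors in edgeR (adjusted p = 0.052) and with no filter on low counts (adjusted p = 0.051). The values without BCAA and glutamine, 0.10 ± 0.08 and -0.07 ± 0.08, did not pass (adjusted p = 0.41 and 0.52).

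Nr4a3, also called NOR-1, was at 14.3, 12.7 and 11.7 CPM in Control and 62.8, 38.5 and 37.3 CPM without methionine, where 1 library was well above the other two. Without BCAA its libraries held 33.4, 32.0 and 33.2 CPM, a narrow group. The remaining withdrawals gave 28.0, 25.6 and 25.6 CPM (glutamine), 23.1, 20.0 and 19.5 CPM (arginine) and 21.0, 19.7 and 20.2 CPM (glucose), with no library at or below the Control range. Nr4a3 rose by 1.84 ± 0.14 without methionine (adjusted p = 3e-09), by 1.35 ± 0.14 without BCAA (adjusted p = 2.6e-07) and by 1.03 ± 0.14 without glutamine (adjusted p = 6.6e-06). The rises without arginine and glucose were 0.70 ± 0.15 and 0.65 ± 0.15 (adjusted p = 0.0043 and 0.0012).

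Ier2 differed from the other members in having its highest mean level without glutamine. Control libraries held 43.7, 40.1 and 38.9 CPM, and those without glutamine 168, 136 and 149.6 CPM. Libraries without methionine, at 115, 128 and 142 CPM, overlapped those without glutamine. Lower levels were seen without BCAA, 92.1, 98.3 and 78.9 CPM, without arginine, 72.2, 80.2 and 64.0 CPM, and without glucose, 65.1, 58.3 and 59.2 CPM, all above Control. Ier2 rose by 1.89 ± 0.10 without glutamine (adjusted p = 5.3e-12), by 1.65 ± 0.10 without methionine (adjusted p = 7.7e-11) and by 1.13 ± 0.10 without BCAA (adjusted p = 2e-08). Its rises without arginine and glucose were 0.82 ± 0.10 and 0.57 ± 0.10 (adjusted p = 2e-05 and 0.00012).

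**Figure D1:**
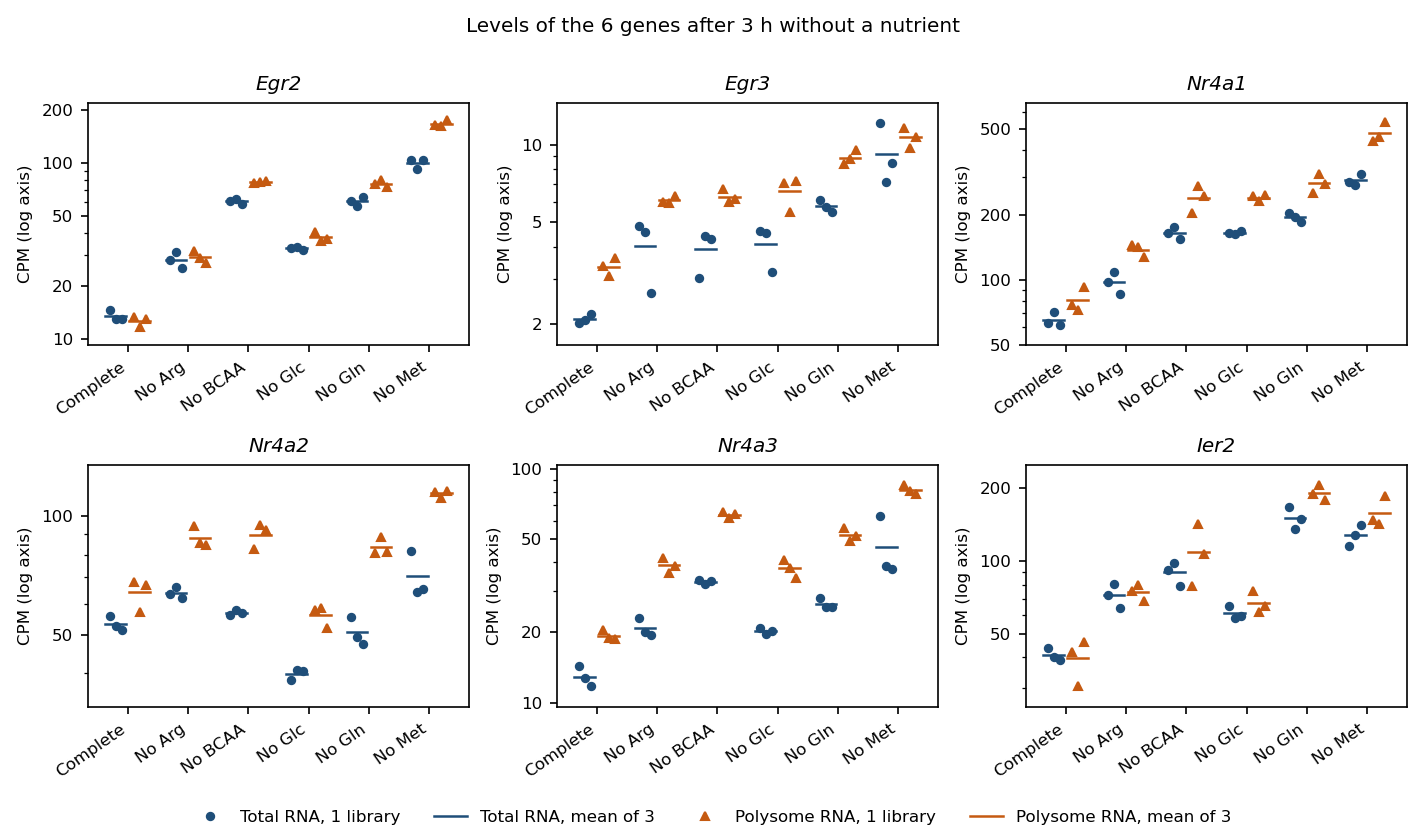
Levels of the 6 genes in the nutrient experiment, 1 panel per gene, as CPM in each of the 3 total RNA and 3 polysome libraries of Control and the 5 deprived groups; points are libraries and bars their means. Egr2 reached 104 CPM in total RNA without methionine against at most 14.6 CPM in Control, while Nr4a2 without glucose stayed below Control in total RNA.

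Differences between deprivations were tested directly in the same fit. Without methionine, 5 of 6 genes were higher than without arginine, where 14.4% of all genes were higher without methionine. All 6 were higher than without BCAA (6.68% of all genes), all 6 higher than without glucose (17.4%) and 5 higher than without glutamine (12.8%). Against BCAA withdrawal, the Nr4a2 call was lost without NoBCAA replicate 1 or NoMethionine replicate 1 (adjusted p = 0.059 and 0.084 by edgeR). Among the other pairs, 4 genes were lower without arginine than without BCAA (12% of all genes), and 4 were higher without BCAA than without glucose (14.8%). Without arginine 2 were lower and 1 higher than without glucose (19.8% and 17.4%), and 3 were lower and 1 higher than without glutamine (19.3% and 16.9%). Without glutamine 5 were higher than without glucose (16.7%) and 2 higher than without BCAA (7.42%). The order of the withdrawals depended on the gene. Egr2 was lowest without arginine, then without glucose (adjusted p = 0.039 for that step), while its levels without glutamine and without BCAA were nearly equal, 60.6 ± 3.86 and 60.7 ± 1.94 CPM (mean ± SD, n = 3; adjusted p = 0.99 by edgeR's test). The step from arginine to glucose was lost on leaving out any library but NoArginine replicate 2 (adjusted p = 0.066 to 0.19). Nr4a1 was likewise lowest without arginine, its levels without BCAA and without glucose did not differ beyond their spread (adjusted p = 0.96), and it was higher without glutamine than without either (adjusted p = 0.043 and 0.026). Leaving out 1 library at a time ended those last 2 calls in 5 of 6 cases each.

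Nr4a3 was not separated between the arginine and glucose withdrawals (adjusted p = 0.83), nor between glutamine and BCAA (adjusted p = 0.14). It was higher without glutamine than without glucose (adjusted p = 0.045), a call lost on leaving out any of the 6 libraries (0.069 to 0.14). Its step from BCAA to methionine (adjusted p = 0.018) was lost on leaving out any library without BCAA or NoMethionine replicate 1 (0.052 to 0.13). It was higher without BCAA than without arginine or glucose (adjusted p = 0.0021 and 0.00076). By edgeR, Egr3 gave no call among arginine, BCAA, glucose and glutamine, where adjusted p-values ran from 0.064 to 0.96. DESeq2 called it lower without arginine than without glutamine (-0.53, adjusted p = 0.046), as did edgeR without NoArginine replicate 1 (0.038). It was higher without methionine than in each of them, though for glutamine not without NoGlutamine replicate 3 or NoMethionine replicate 1 (adjusted p = 0.061 and 0.1). Nr4a2 had another order: lowest without glucose, then glutamine, BCAA, arginine and methionine, and of the neighbouring steps only that from glucose to glutamine passed (adjusted p = 0.0024; 0.18, 0.17 and 0.22 for the others). Ier2 was lowest without glucose and arginine, which edgeR did not separate with all libraries (adjusted p = 0.061). DESeq2 called it higher without arginine (0.25, adjusted p = 0.049), as did edgeR without NoArginine replicate 3 (0.32, 0.024). Next came its levels without BCAA (adjusted p = 0.027 against arginine, lost without NoArginine replicate 1 or 3 or NoBCAA replicate 1 or 2, 0.075 to 0.13). Its levels without methionine and glutamine were not separated by edgeR with all libraries (adjusted p = 0.082). On leaving out NoGlutamine replicate 2 or NoMethionine replicate 3, edgeR called Ier2 higher without glutamine (0.31, adjusted p = 0.042 in both fits).

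**Figure D2:**
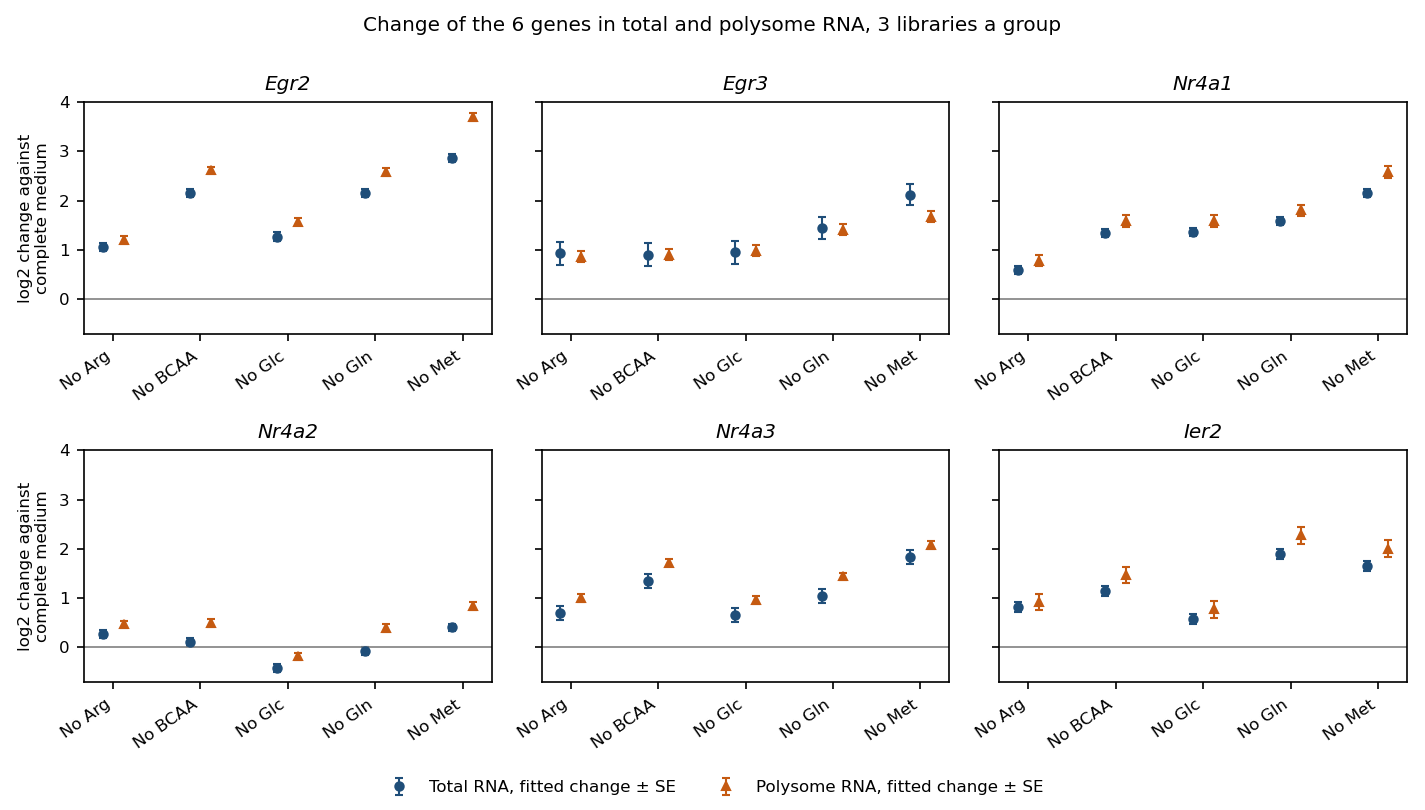
Log2 fold changes against Control for the 6 genes in each deprivation, in total RNA and polysome RNA; points are edgeR estimates and bars their standard errors. Egr2 without methionine lay farthest from 0, at 2.87 in total RNA and 3.71 in polysome RNA, and Nr4a2 without glucose lay below 0 in both.

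In polysome RNA, which holds mRNA engaged by several ribosomes, the question was whether the rises were also present in the translated pool. All 6 genes rose without arginine, BCAA, glutamine and methionine. Without glucose 5 rose and Nr4a2 was called lower. The share of all genes that rose was 19% without arginine, 28.7% without BCAA, 29.6% without glucose, 32.2% without glutamine and 34.3% without methionine, and 29.4% fell without glucose. Each of these shares was above the one for total RNA. Polysome libraries here were also deeper, at 29917770 to 54272886 counts against 15144663 to 30637485. Whether depth accounts for the larger shares was not tested.

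Egr2 on polysomes went from 13.4, 11.8 and 13.0 CPM in Control to 163, 162 and 174 CPM without methionine, 13.1-fold or 3.71 ± 0.08 on the log2 scale (adjusted p = 4.5e-17). It reached 75.6, 80.3 and 72.4 CPM without glutamine and 77.1, 77.5 and 79.1 CPM without BCAA. Levels without glucose and arginine were 40.5, 36.1 and 37.0 CPM and 31.5, 28.8 and 27.2 CPM, and no deprived library overlapped Control. Nr4a1 held 76.1, 72.3 and 92.0 CPM in Control and 441, 460.3 and 541 CPM without methionine, a rise of 2.58 ± 0.12 (adjusted p = 2e-12). Its rises in the other withdrawals ran from 0.78 ± 0.11 without arginine to 1.80 ± 0.11 without glutamine. Nr4a3 went from 20.5, 18.9 and 18.6 CPM to 85.8, 80.3 and 78.4 CPM without methionine, a rise of 2.07 ± 0.08 (adjusted p = 3.9e-13). In this pool Nr4a3 without methionine formed a tight group, unlike its 3 total RNA libraries.

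Egr3 on polysomes rose from 3.37, 3.08 and 3.61 CPM to 11.6, 9.71 and 10.7 CPM without methionine, by 1.67 ± 0.11 (adjusted p = 2.3e-10), less than its total RNA estimate of 2.12. Ier2 went from 42.2, 30.4 and 46.1 CPM in Control to 189, 207 and 179 CPM without glutamine and 148, 143 and 186 CPM without methionine, rises of 2.28 ± 0.17 and 2.00 ± 0.17 (adjusted p = 1.5e-09 and 5.7e-09). Nr4a2 rose on polysomes in 4 withdrawals, among them glutamine and BCAA, where total RNA gave no call: by 0.38 ± 0.08 and 0.49 ± 0.08 (adjusted p = 0.00029 and 3.5e-05), from 68.3, 57.1 and 66.9 CPM in Control to 80.9, 88.8 and 81.4 and 82.4, 95.0 and 92.4 CPM. Without methionine it reached 115, 112 and 116 CPM. Without glucose its libraries, at 57.7, 58.7 and 52.1 CPM, overlapped Control, and the change of -0.19 ± 0.08 (adjusted p = 0.045) was lost with no filter on low counts (adjusted p = 0.083), with DESeq2's size factors in edgeR (0.05) and in 4 of 6 fits that left out 1 library (0.058 to 0.19).

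Translational efficiency (TE) was compared next, as the change of the polysome to total ratio against that in Control, tested as an interaction over both kinds of library. Egr2 and Nr4a2 gained TE in some withdrawals. With all libraries, edgeR called no member as losing TE, and Egr3 without methionine came closest (values below). Egr2 gained 0.74 ± 0.10 without methionine (adjusted p = 4.7e-07), 0.35 ± 0.10 without BCAA (adjusted p = 0.013) and 0.28 ± 0.10 without glutamine (adjusted p = 0.032). Per lysate, the log2 ratio of Egr2 was -0.13, -0.10 and 0.02 in Control and 0.59, 0.77 and 0.67 without methionine, with no overlap. The gain without BCAA was lost without NoBCAA replicate 3 (adjusted p = 0.061), and that without glutamine on leaving out Control replicate 1 or 2 or NoGlutamine replicate 1 or 2 (0.066 to 0.2). Nr4a2 gained 0.35 ± 0.11 without methionine and 0.32 ± 0.11 without glutamine (adjusted p = 0.0088 and 0.024). Its log2 ratios were 0.29, 0.17 and 0.41 in Control, 0.42, 0.73 and 0.68 without glutamine and 0.43, 0.74 and 0.76 without methionine. The first call was lost without NoMethionine replicate 3 (adjusted p = 0.058), and the second on leaving out any of 4 libraries, Control replicates 1 and 2 and NoGlutamine replicates 2 and 3 (0.05 to 0.13). Without BCAA, edgeR's main fit did not call Nr4a2, while DESeq2 called a gain (0.35, adjusted p = 0.0089). EdgeR also called it with each lysate taken as a block (0.29, 0.036) and with DESeq2's size factors (0.35, 0.017).

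By comparison, 1 of 6 genes gained TE without BCAA, 2 without glutamine and 2 without methionine, where 8.03%, 9.98% and 19.2% of all genes did. Without arginine and without glucose no member was called by edgeR, where 16.5% and 25.8% of all genes were; at an unadjusted p under 0.05 there were 0 and 1, and DESeq2 called 0 and 1. Nr4a1 without methionine changed by 0.33 ± 0.14 (adjusted p = 0.053), and Egr3 there by -0.54 ± 0.25 (adjusted p = 0.066). DESeq2 called the Nr4a1 gain (0.41, adjusted p = 0.012), as did edgeR with each lysate taken as a block (0.34, 0.02). On leaving out NoMethionine replicate 2, edgeR called the Egr3 loss (-0.64, adjusted p = 0.038). By edgeR, Ier2 and Nr4a3 gave no TE call in any withdrawal, with estimates from 0.08 to 0.29. Nr4a3 was called by DESeq2 without glutamine (0.40, adjusted p = 0.047), and by edgeR without methionine on leaving out NoMethionine replicate 1 (0.40, 0.0057). The median TE change of the 6 genes was 0.16, 0.24, 0.15, 0.26 and 0.30 for the withdrawals of arginine, BCAA, glucose, glutamine and then methionine, beside -0.04, -0.12, -0.08, -0.15 and -0.14 over all genes.

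TE values of this experiment moved with the scaling. Ribosomal RNA entries took 0.892 to 5.11% of counts in its total RNA libraries and 0.0755 to 0.285% in its polysome libraries. Leaving the ribosomal RNA entries out of the library sizes moved the median of all genes up by 0.07 without arginine, 0.14 without BCAA, 0.13 without glucose, 0.16 without glutamine and 0.12 without methionine, and the members' TE values moved with it. The share of all TE calls that were gains went from 40.7, 29.8, 34.3, 28.4 and 39.2% to 61, 60.5, 60, 54.5 and 50.6% in the same order. Under that scaling Egr2 without glucose (0.34, adjusted p = 0.017), Nr4a2 without BCAA (0.42, 0.0057), Nr4a3 without glutamine (0.42, 0.044) and Nr4a1 without methionine (0.46, 0.0084) were also called as gains.

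Polysome over total RNA in complete medium, the baseline of these ratios, was above 0 for 4 of the 6 genes, where 37.6% of all genes were higher on polysomes. Egr3 was higher on polysomes by 0.70 ± 0.19, Nr4a3 by 0.61 ± 0.12, Nr4a1 by 0.33 ± 0.10 and Nr4a2 by 0.29 ± 0.08 (adjusted p = 0.0021, 4.7e-05, 0.0055 and 0.0016). Egr2 and Ier2 were at -0.07 ± 0.08 and -0.02 ± 0.15. Without the ribosomal RNA entries the median of all genes moved by -0.14, Nr4a1 and Nr4a2 lost their calls (0.19, adjusted p = 0.11, and 0.15, 0.096) and Egr2 was called lower on polysomes (-0.21, 0.02). The call of Nr4a1 was also lost without Control replicate 3 (adjusted p = 0.2).

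In DMSO, the control of the drug experiment, the same ratio was above 0 for 2 genes and below 0 for 3, where 28.4% of all genes were higher and 30.9% lower on polysomes. Ier2 was higher on polysomes by 1.44 ± 0.12 and Nr4a1 by 0.35 ± 0.11 (adjusted p = 2e-10 and 0.0092). Egr3 was lower by 1.16 ± 0.19, Nr4a3 by 1.14 ± 0.17 and Nr4a2 by 0.39 ± 0.15 on the log2 scale (adjusted p = 7.3e-06, 1.6e-06 and 0.031). Egr3, Nr4a2 and Nr4a3 thus had ratios of opposite sign in the 2 controls. The experiments differ in library type and were not tested against each other, so experiment and library type cannot be told apart here. Replicate 3 of DMSO had the lowest polysome level of the 3 for Egr2, Egr3, Nr4a2 and Nr4a3, and without it the calls of Nr4a1 and Nr4a2 were lost (adjusted p = 0.11 and 0.12). Nr4a2 also lost its call without DMSO replicate 4 (0.098).

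**Figure D3:**
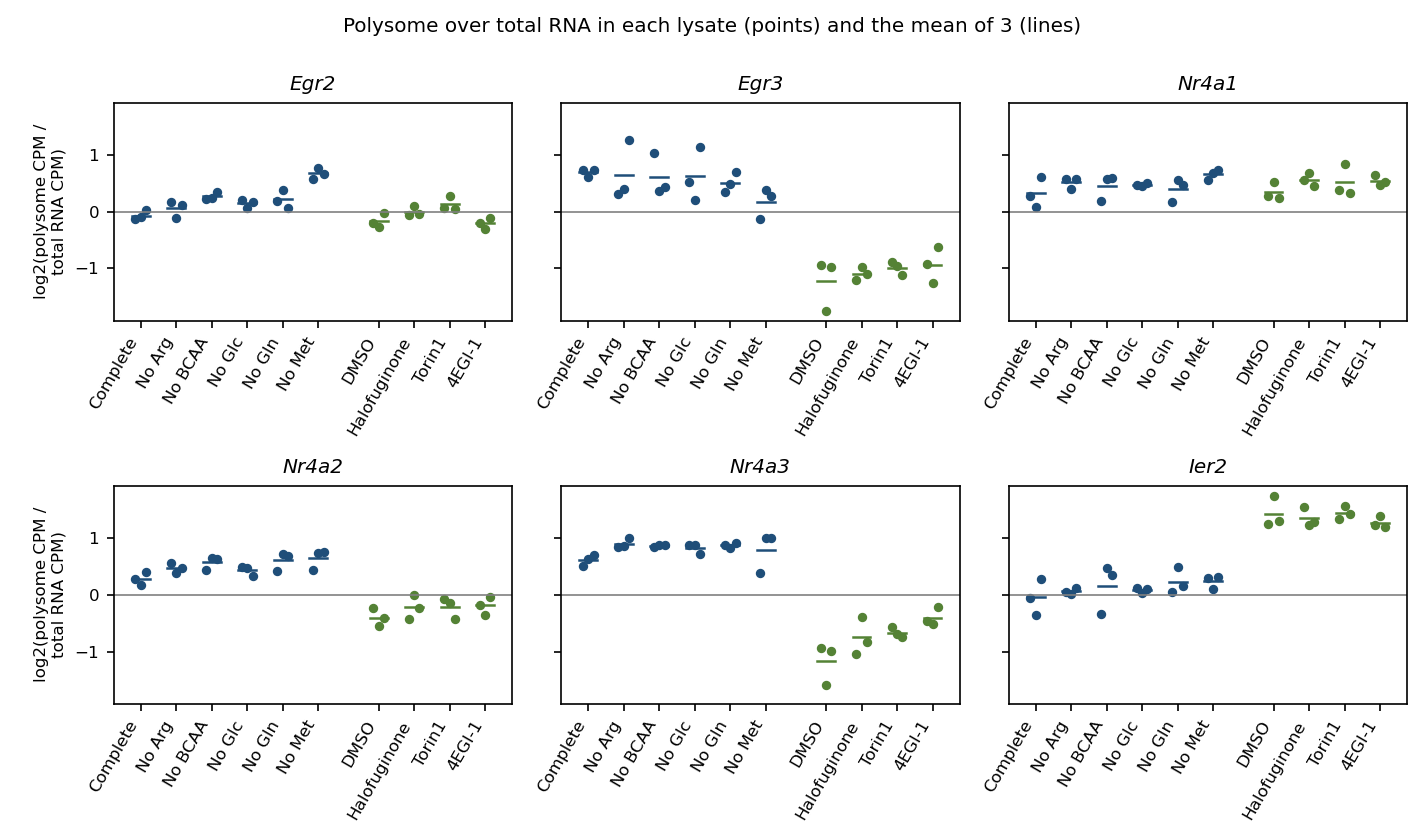
Log2 ratio of polysome to total CPM per lysate for the 6 genes, in Control and the 5 deprivations and in DMSO and the 3 drugs; points are lysates and bars the group means. Egr2 lysates lay between 0.587 and 0.767 without methionine, above the 3 Control lysates.

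The drugs were then compared with DMSO. In total RNA, 4EGI-1 lowered 4 of the 6 genes, Torin1 raised both EGR genes and lowered Nr4a1, and halofuginone raised Nr4a1. Of all genes tested, 12.3% fell and 14.1% rose with 4EGI-1, 13.3% rose and 13.3% fell with Torin1, and 0.239% rose and 0.0399% fell with halofuginone. No member was called in the same direction by all 3 drugs. The 3 comparisons share the DMSO libraries.

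Egr2 stood at 44.6, 36.3 and 43.7 CPM in DMSO, 7.97, 10.2 and 9.92 CPM with 4EGI-1 and 73.9, 59.2 and 79.4 CPM with Torin1. Halofuginone libraries held 44.7, 54.2 and 55.7 CPM, just above the DMSO range. 4EGI-1 lowered Egr2 by 2.15 ± 0.14 on the log2 scale, 4.44-fold (adjusted p = 1.3e-08), and Torin1 raised it by 0.77 ± 0.12, 1.71-fold (adjusted p = 0.00014). With halofuginone the change was 0.31 ± 0.12 (adjusted p = 0.47). Egr3 followed the same pattern, with 80.6, 74.4 and 83.6 CPM in DMSO, 19.8, 24.9 and 22.8 CPM with 4EGI-1 and 98.1, 93.7 and 119 CPM with Torin1. Egr3 fell by 1.82 ± 0.12 with 4EGI-1 (adjusted p = 2.7e-08) and rose by 0.38 ± 0.12 with Torin1 (adjusted p = 0.02). The rise with Torin1 was lost without DMSO replicate 3 or Torin1 replicate 4 (adjusted p = 0.074 and 0.13). The 4EGI-1 libraries of both EGR genes lay below every other total RNA library of the experiment.

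Nr4a1 split the drugs differently. DMSO libraries held 212, 213 and 233 CPM, and halofuginone libraries 287, 333 and 317 CPM. Torin1 and 4EGI-1 gave 156, 137 and 181 CPM and 162, 183 and 172 CPM, all below DMSO. Nr4a1 rose by 0.51 ± 0.09 with halofuginone (adjusted p = 0.02), and fell by 0.48 ± 0.09 with Torin1 and 0.35 ± 0.09 with 4EGI-1 (adjusted p = 0.001 and 0.0097). The rise with halofuginone was lost in 5 of 6 fits that left out 1 library (adjusted p = 0.059 to 0.21), all but the one without halofuginone replicate 2. Nr4a2 overlapped DMSO with every drug. Its levels were 87.5, 76.9 and 98.8 CPM in DMSO and 62.7, 78.1 and 69.1 CPM with 4EGI-1, a change of -0.33 ± 0.11 (adjusted p = 0.04) that was lost without 4EGI-1 replicate 2 or 4 or DMSO replicate 1 or 4 (0.07 to 0.18). Nr4a3 and Ier2 gave no call in total RNA with any drug. Nr4a3 held 370.2, 362 and 378 CPM in DMSO and 409.8, 473 and 428 CPM with halofuginone (0.24 ± 0.08, adjusted p = 0.4). With 4EGI-1 it held 321, 330 and 338 CPM, all below DMSO. Ier2 held 127, 111 and 131 CPM in DMSO, and its changes lay between -0.10 and 0.07.

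**Figure D4:**
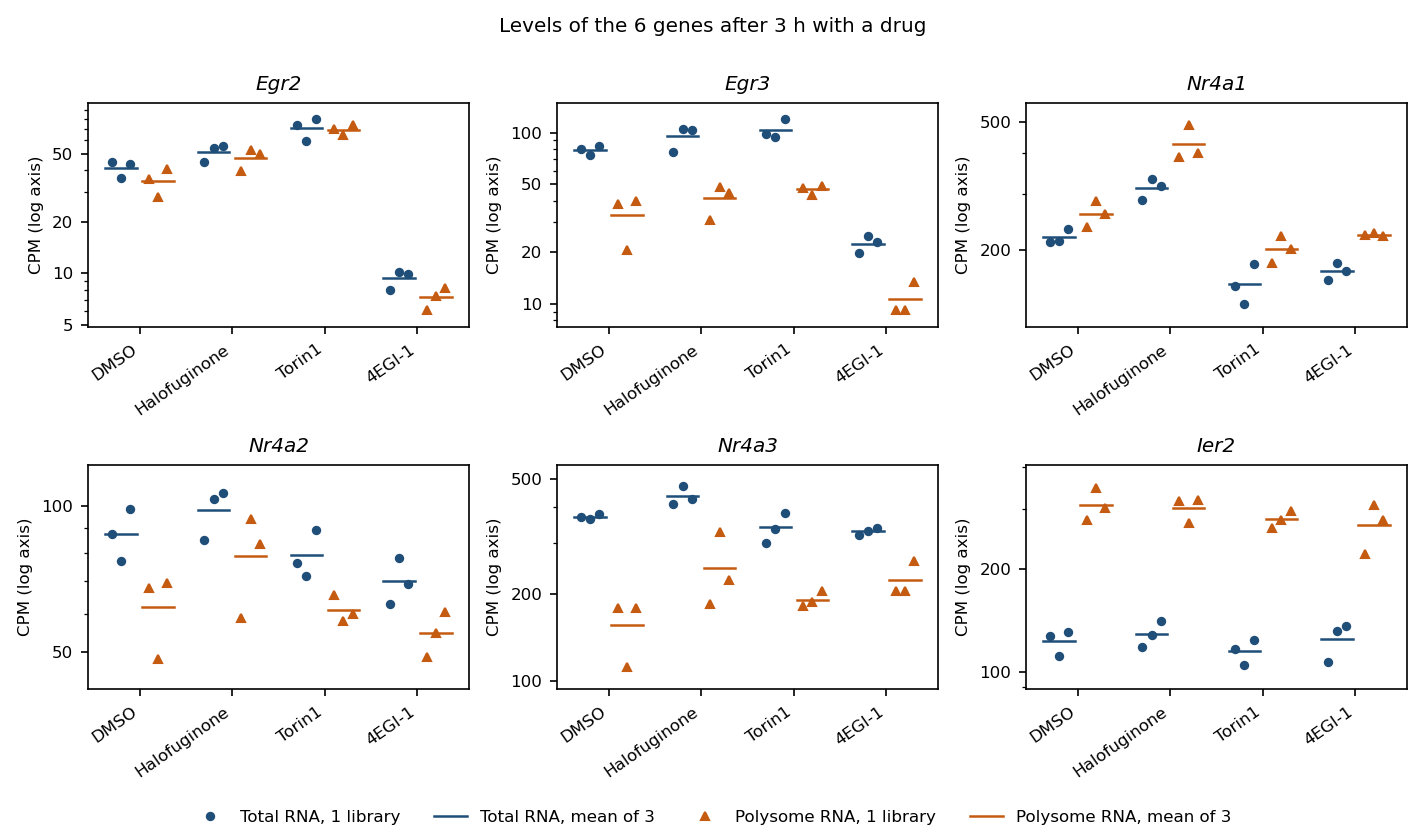
Levels of the 6 genes in the drug experiment, 1 panel per gene, as CPM in the 3 total RNA and 3 polysome libraries of DMSO, halofuginone, Torin1 and 4EGI-1; points are libraries and bars their means. In total RNA, Egr2 was between 7.97 and 10.2 CPM with 4EGI-1 and between 59.2 and 79.4 CPM with Torin1, on either side of DMSO.

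Drugs were also tested against each other in total RNA, over 3 pairs; the labels give no doses, so these are differences between the treatments as applied. Against 4EGI-1, 5 of the 6 genes were higher with halofuginone (10.3% of all genes) and 2, Egr2 and Egr3, with Torin1 (17.9%). Egr2 was higher with Torin1 than with 4EGI-1 by 2.92 ± 0.14 and Egr3 by 2.21 ± 0.13 (adjusted p = 9.4e-11 and 9.1e-10). Between halofuginone and Torin1, 3 genes differed, 2 higher with halofuginone and 1 lower, against 11.4% and 10.8% of all genes. Nr4a1 was higher with halofuginone by 0.98 ± 0.09 and Nr4a3 by 0.36 ± 0.08 (adjusted p = 1.3e-06 and 0.0039). Egr2 was lower with halofuginone by 0.46 ± 0.12 on the log2 scale (adjusted p = 0.0099), a call lost without halofuginone replicate 2 or Torin1 replicate 4 (0.068 and 0.059).

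On polysomes both EGR genes fell with 4EGI-1 and Egr2 rose with Torin1. Egr2 held 35.5, 28.0 and 40.5 CPM in DMSO and 6.12, 7.36 and 8.21 CPM with 4EGI-1, a fall of 2.26 ± 0.17 on the log2 scale or 4.79-fold (adjusted p = 1e-07). With Torin1 it held 69.5, 64.8 and 73.2 CPM, a rise of 1.00 ± 0.16 (adjusted p = 0.00036). Egr3 held 38.3, 20.6 and 39.9 CPM in DMSO and 9.22, 9.25 and 13.3 CPM with 4EGI-1, a fall of 1.64 ± 0.23 (adjusted p = 1e-04). DMSO libraries differed among themselves for Egr3, with replicate 3 at 20.6 CPM. With Torin1 Egr3 held 47.4, 43.4 and 49.0 CPM, all above DMSO, but the change of 0.50 ± 0.22 was not called (adjusted p = 0.12). Nr4a1 with Torin1 held 182, 222 and 203 CPM, all below the 235, 285 and 259 CPM in DMSO. EdgeR did not call this fall, while DESeq2 did (-0.34, adjusted p = 0.047). In all, edgeR called 2 of 6 genes lower with 4EGI-1, where 14.5% of all genes fell, and 1 higher with Torin1, where 8.48% rose.

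Halofuginone gave no call among the 6 genes on polysomes by edgeR, where 0.0491% of all genes were called; 3 members had an unadjusted p under 0.05 and DESeq2 called 1. That gene was Nr4a1, at 235, 285 and 259 CPM in DMSO and 389, 488 and 401 CPM with halofuginone (0.72 ± 0.13, adjusted p = 0.051 by edgeR and 0.00012 by DESeq2). The groups did not overlap. Nr4a3 with 4EGI-1 held 205, 205 and 259.5 CPM against 178, 111 and 178 CPM in DMSO (0.52 ± 0.20, adjusted p = 0.057), and DESeq2 gave an adjusted p of 0.035. Its polysome libraries also lay above DMSO with the other drugs. They held 184, 328 and 223 CPM with halofuginone and 182, 187 and 204 CPM with Torin1, and edgeR called neither. The lowest DMSO library, at 111 CPM, was replicate 3. In edgeR's main fit no drug gave a TE call for any member, where 0%, 1.79% and 0.565% of all genes were called with halofuginone, Torin1 and 4EGI-1. At an unadjusted p under 0.05 there were 0, 0 and 1, and DESeq2 called 0 in each. The 1 gene was Nr4a3 with 4EGI-1, at 0.74 ± 0.23 (adjusted p = 0.12). With each lysate taken as a block, edgeR called this gain (0.77, adjusted p = 0.013). That fit called 630 genes in all with 4EGI-1, against 72 in the main fit.

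Other genes of these pathways were counted in lists chosen for their roles, in total RNA; the order is always arginine, BCAA, glucose, glutamine and methionine, and the share of all genes called in each is given above. The other immediate early genes, 35 tested of 39 listed, which like the members respond quickly to receptor signals, rose in 12, 20, 15, 21 and 28 cases and fell in 1, 2, 4, 2 and 1. Their medians were 0.25, 0.37, 0.18, 0.43 and 0.67, where those over all genes tested were 0.01, 0.00, 0.02, -0.01 and 0.02. Fos, the AP-1 subunit, rose by 1.01, 1.95, 1.63, 2.43 and 2.92. Ier5, a relative of Ier2, also rose in every withdrawal, by 0.54, 1.22, 0.30, 1.60 and 1.5. Ier3, an immediate early gene tied to cell survival, went the other way and fell in all 5, with log2 changes of -0.81, -1.43, -1.55, -2.34 and -1.61. Atf3, a stress-induced bZIP factor on the same list, rose by 0.64, 2.11, 0.89, 2.18 and 1.75. Ier5l rose by 1.48 without glucose and 1.51 without methionine.

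Of 15 tested corepressors and reported targets of EGR factors in T cells, 4, 5, 5, 4 and 8 rose and 0, 0, 4, 2 and 1 fell in the same order, with medians of 0.10, 0.09, 0.07, 0.08 and 0.23. Nab2, a corepressor that EGR factors induce and that then binds them, rose in all 5 withdrawals, by 0.34, 1.05, 0.89, 1.03 and 0.92. Its paralogue Nab1 was not called in any of them, with changes of 0.00, 0.09, 0.07, 0.08 and -0.04. The inhibitor of DNA binding Id3 led the list without arginine (0.41). The largest falls were Socs3, a brake on cytokine signalling, without glucose (-1.07), Tnfrsf9, which encodes the costimulatory receptor 4-1BB, without glutamine (-0.29), and the diacylglycerol kinase gene Dgkz without methionine (-0.23). Of 10 tested genes linked to NR4A in T cells, 3, 4, 4, 4 and 4 rose and 0, 0, 2, 2 and 1 fell, with medians of 0.03, 0.27, 0.14, 0.19 and 0.25. Tox, a factor of exhausted T cells on that list, rose by 0.91 without glucose (adjusted p = 0.011). Gadd45b, a stress-inducible gene, rose in all 5, by 0.43, 1.26, 0.46, 1.99 and 1.04. The largest falls were those of Irf4 without glucose (-1.03), Entpd1, which encodes CD39, without glutamine (-0.43) and the survival gene Bcl2 without methionine (-0.23).

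The lists of upstream regulators held calls in both directions, with medians in the same order of -0.03, 0.00, -0.14, -0.10 and -0.06 for the ERK cascade, 0.03, -0.09, 0.00, 0.11 and -0.03 for serum response factor and -0.02, 0.00, -0.06, -0.12 and 0.01 for NFAT and MEF2. Of 19 tested ERK cascade genes, 2, 3, 2, 3 and 3 rose and 1, 2, 6, 7 and 6 fell, the largest falls including Hras without glutamine (-0.61) and the kinase gene Map2k1 without methionine (-0.63). Of 11 genes of serum response factor and its partners, 0, 1, 1, 2 and 1 rose and 0, 2, 2, 3 and 2 fell; without arginine 1 had an unadjusted p under 0.05. Srf itself was not called in any withdrawal (0.03, -0.12, -0.02, 0.18 and -0.12), while Crem, a cyclic AMP response factor gene on the list, led the rises without BCAA (0.44), glucose (0.32) and glutamine (0.52). Of 14 genes of calcineurin, NFAT and MEF2, 1, 1, 3, 3 and 2 rose and 0, 1, 3, 5 and 0 fell. Nfatc2 fell by 0.50 ± 0.18 without glutamine and Mef2d by 0.40 ± 0.14 without glucose, while Nfatc1 changed by 0.15, -0.16, 0.02, -0.18 and 0.28. Of the pathway genes chosen to be named for their role, 2 were not analysed here.

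Drugs gave other counts in the same lists. Of the 35 immediate early genes, 2 rose and 1 fell with halofuginone, 12 rose and 11 fell with Torin1, and 8 rose and 16 fell with 4EGI-1. Dusp2, a phosphatase gene, led the falls with 4EGI-1 (-1.38) and Fosl1 those with Torin1 (-1.12), where Klf2, a gene of quiescence and homing, led the rises (1.09). Fos rose by 0.51 with Torin1 and fell by 0.53 with 4EGI-1. Ier3 fell with halofuginone (-0.85) and Torin1 (-0.86) and rose with 4EGI-1 (0.90). With 4EGI-1, 6 of 15 EGR-linked genes fell and 1 rose; the largest fall was that of Socs1 (-1.35), a brake on cytokine signalling. Falls with 4EGI-1 elsewhere in the lists included Dusp6 (-1.28) and Spry1 (-1.47), feedback inhibitors of ERK signalling, and Pdcd1 (-1.31), which encodes PD-1. Torin1 raised Dusp6 (1.35), Spry1 (1.05) and Pdcd1 (0.47), and raised 8 of 10 NR4A-linked genes, with a median of 0.47 beside 0.01 over all genes, although Nr4a1 itself fell. Within that list Entpd1 rose most (0.93) and Gadd45b fell (-0.27). Nab2 fell with Torin1 (-0.35) and 4EGI-1 (-0.44). With halofuginone edgeR called none of the EGR-linked or NR4A-linked genes, of which 3 and 1 had an unadjusted p under 0.05.

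**Figure D5:**
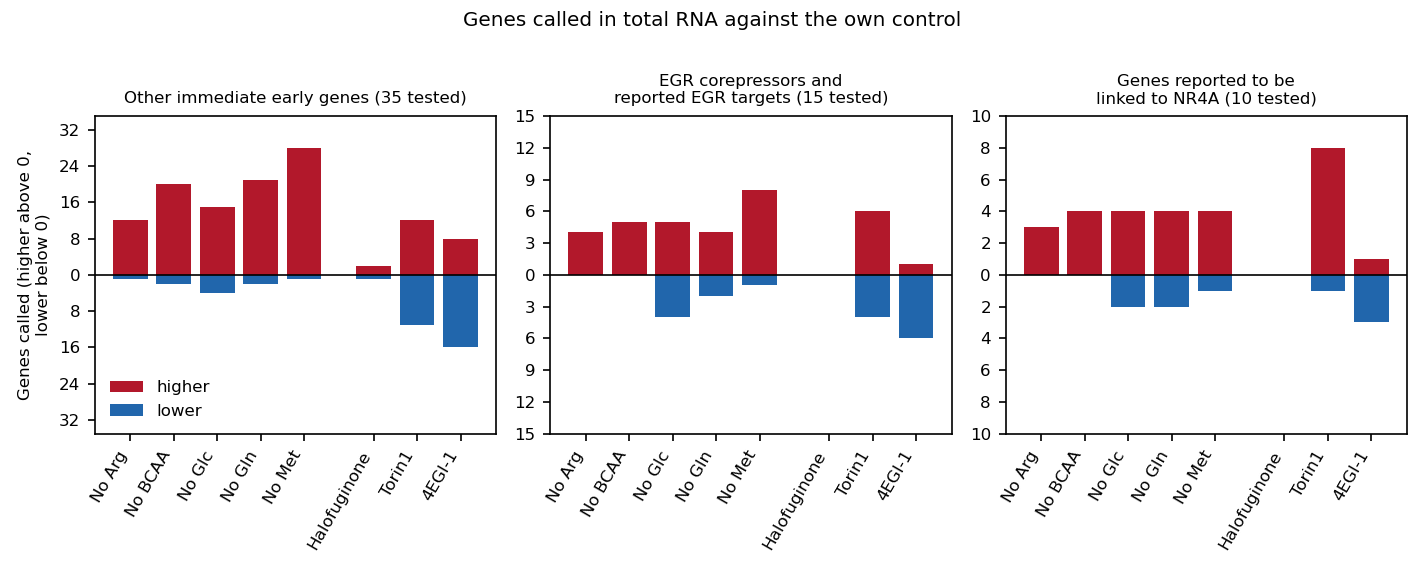
Number of genes called higher (above 0) or lower (below 0) in total RNA, by list and comparison, from edgeR's test at an adjusted p of 0.05. Panels hold the other immediate early genes, the EGR corepressors and reported EGR targets, and the genes linked to NR4A. Other immediate early genes rose in 28 of 35 cases without methionine, whereas with 4EGI-1 16 of 35 fell.

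Genes outside the set with patterns most similar to each member were found over the 24 treated total RNA libraries, 15 deprived and 9 drug. The search took the 12039 genes tested in both experiments and left out the members. Likeness was the root mean square difference between log2 changes from the mean of the own control. The size of a member's own changes sets what a small difference is, so it is given too. Egr2, whose own changes had a root mean square of 1.79, was nearest to Fos (0.617), Prr5l and H4c14. Nr4a1 (1.22) was nearest to Herpud1 (0.372), Slc3a2 and Slc30a1, and Nr4a3 (0.952) to Tmem154 (0.311), Slc7a1 and Zfp689. Ier2 (1.04) was nearest to the histone gene H3c3 (0.293), Gadd45b and Ier5. Egr3 (1.25) was nearest to Serpina3f (0.437), Rgs16 and Phlda1, and Nr4a2 (0.286) to Lsm14b (0.165), Ccdc71 and Ywhab. Members were left out of that ranking, and by the same measure Egr3 was nearer to Egr2 (0.669) than Prr5l was (0.752). The closest pairs within the set were Nr4a3 and Ier2 (0.385), Nr4a1 and Nr4a3 (0.416) and Nr4a1 and Ier2 (0.445).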

How the data were processed

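The authors deposited unnormalized whole-number read counts for each Ensembl gene, for 60 of the 78 labelled libraries; 18 monosome libraries were not analysed here. Per the submitters' processing notes, Trimmomatic, FastQC, MultiQC, STAR, HTSeq and edgeR were used with the build GRCm39, with no versions or roles. No library column was without a sample, and 449 genes had no symbol.

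The counts were compared with edgeR 4.0.16 in R 4.3.3 (limma 3.58.1), and with DESeq2 1.42.0 as an alternative. Genes were kept by filterByExpr at a minimum count of 10 and libraries scaled by TMM, which sees no shift common to all genes. Each experiment's groups were fitted together, total and polysome RNA apart, by the quasi-likelihood F test, with 12642, 12417, 12535 and 12223 genes tested; TE was the interaction in a joint fit (13072 and 12745 genes). Standard errors were the log2 fold change over the root of F. Pattern likeness used log2 CPM with a prior count of 2. The procedure was tested on simulated data.

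No 2 libraries held identical values, over 60 replicate pairs compared. Libraries with the same replicate number were not treated as pairs: their residuals correlated at a mean of 0.0353 and 0.0755 (nutrient, total and polysome) and 0.0776 and 0.0584 (drug), from -0.201 to 0.343. Total and polysome RNA of a lysate are paired by design (mean 0.0552 and 0.107); the TE fit leaves this out, with the lysate as a block as an alternative. On polysomes, the labels of replicate 3 of Torin1 and replicate 2 of 4EGI-1 end in an R of unstated meaning; both libraries were kept.

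All 6 genes were named in each comparison, with the 3 nearest patterns of each, pathway genes named for their role, and the called genes of each list with the largest rise and fall where described. The members and lists were chosen with earlier results of these data known. Promoter sequences came from RefSeq (GRCm38.p6), and no coordinates of the count table's build were used.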

Additional observations from a re-analysis of the deposited data

Results flagged for a closer look

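In total RNA, 6 differences between treatments of 1 experiment stood out because the 2 effects had opposite signs and edgeR's test of the difference itself passed. Nr4a2 changed by 0.26 without arginine and -0.42 without glucose, a difference of 0.68 (adjusted p = 2.3e-06). For Nr4a2 without glucose against without methionine the difference was -0.82 (effects -0.42 and 0.40, adjusted p = 1.6e-07). Nr4a1 changed by 0.51 with halofuginone and by -0.48 with Torin1 and -0.35 with 4EGI-1, differences of 0.98 and 0.86 (adjusted p = 1.3e-06 and 4.7e-06). Egr2 and Egr3 differed between Torin1 and 4EGI-1 by 2.92 and 2.21 (effects 0.77 and -2.15 for Egr2, 0.38 and -1.82 for Egr3; adjusted p = 9.4e-11 and 9.1e-10).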

How the results depend on the processing

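Alternatives were DESeq2, DESeq2's size factors in edgeR, no filter on low counts, library sizes without ribosomal RNA entries, the replicate number or lysate as a block, and leaving out each replicate. No result of a single gene changed sign where called: of those values under the alternatives, 2409 kept their side of the threshold, 80 fell back from it and 49 passed it. The number of members called moved by over 1.5 times as follows. With the replicate block it was 2 with halofuginone in total RNA (Egr2, 0.46, adjusted p = 0.036, joining Nr4a1), 5 between halofuginone and Torin1 and 3 with Torin1 on polysomes. With the lysate as a block it was 1 in TE with 4EGI-1 (Nr4a3, 0.77, adjusted p = 0.013). DESeq2 gave 1 with halofuginone and 2 with Torin1 on polysomes, and no filter gave 1 with halofuginone on polysomes. In TE, DESeq2, its size factors in edgeR and the scaling without ribosomal RNA entries each gave 2 without BCAA and 1 without glucose, and the lysate block gave 2 without BCAA. Leaving out 1 library gave 0 to 1 with halofuginone (total RNA), 0 to 2 in TE without BCAA (0 without NoBCAA replicate 3), 0 to 2 in TE without glutamine, 1 to 4 in TE without methionine, 1 to 2 between BCAA and glutamine, 3 to 4 between glucose and glutamine, and 3 to 5 for polysome over total RNA in DMSO (3 without DMSO replicate 3). The cause of these moves was not tested. The block also ended the call of Nr4a2 with 4EGI-1 (-0.24, adjusted p = 0.069). The labels do not say whether a replicate number marks a shared culture, so whether the block belongs in the fit is not known. That call was also lost on leaving out 4EGI-1 replicate 2 or 4 or DMSO replicate 1 or 4. Egr3 in the nutrient experiment had the fewest reads of the 6 genes, which limits its precision.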
